A study of Nothobranchius furzeri with 20 samples.

Results

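Muscle from exercised male turquoise killifish (Nothobranchius furzeri, strain MZM-04/10p) was compared between the ages of 27 and 9 weeks by RNA sequencing. The comparison took 15 of the 20 libraries of the series, chosen by their labels alone: all 10 from fish of 27 weeks and the 5 from fish of 9 weeks that carried the swim-tunnel label. A swim tunnel holds the fish in flowing water and so makes it swim; how long and how fast the fish swam is not given in the sources used here. Both ages shared sex, strain, tissue and swim-tunnel label, so age was the labelled difference. A further 5 libraries came from fish of 9 weeks without exercise and served only to estimate the spread between libraries and as side values. The labels named no animals, and p-values therefore measure the spread between these libraries.

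The 27-week libraries carried sample codes in 2 runs, JM132 to JM137 without 135 (5 libraries, block 1) and JM139 to JM143 (5 libraries, block 2). No label gives a meaning to the codes. The blocks were proposed after the expression values of these libraries had been seen, and they are not groups of the study. The 9-week swim-tunnel libraries were JM117 to JM121, so a batch that followed the codes and the age of the fish cannot be told apart.

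The turquoise killifish is an annual fish of seasonal pools and one of the shortest-lived vertebrates kept in captivity, which makes it a model of vertebrate ageing. Fish trunk muscle consists mostly of fast fibres, with a thin layer of slow fibres, and its messenger RNA is dominated by transcripts of contractile proteins and of the enzymes that supply them with energy. Ageing skeletal muscle in vertebrates is known for loss of mass and of regenerative capacity and for changes in mitochondria and connective tissue. The deposited tables name genes by identifier alone, and none of the identifiers could be paired with a gene name, so neither muscle markers nor markers of blood, fat, nerve or skin could be looked up. In bulk muscle, fewer cells of a type and less RNA per cell cannot be told apart.

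Library totals ran from 25549097 to 34331958 gene counts at 27 weeks and from 24333849 to 38007162 at 9 weeks. Neither totals, nor the number of detected genes, nor the share of counts in the 50 most abundant genes of a library passed a test between the ages, with all 27-week libraries together or with either block (9 two-sided exact permutation tests, lowest adjusted p = 0.688). The first principal component of log2 CPM over these 15 libraries (CPM, gene counts scaled to a common TMM-adjusted library size) held 36.9% of the variance. Block 1 lay between 60.5 and 70.8 on it, block 2 between -30.2 and 0.281, and the 9-week libraries between -71.8 and -28.5. Block 2 thus lay between block 1 and the 9-week libraries, and its library 6 overlapped with them. The SD of the median gene was 0.43 log2 units over all 10 libraries of 27 weeks, 0.27 within block 1 and 0.30 within block 2, against 0.32 among the 9-week libraries.

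With all 10 libraries of 27 weeks taken as 1 group, 2471 genes rose and 2805 fell with age, 14.8% and 16.8% of the 16653 genes tested (quasi-likelihood test of edgeR, threshold 0.05 on p-values adjusted over all tested genes). Every 27-week library lay above every 9-week library in CPM for 430 genes, 2.58% of those tested, and below for 1037 genes, 6.23%. Of the 5276 genes called, 2768 (52.5%) were also called in the same direction in each block by itself. For 2635 (49.9%) the 2 blocks differed from each other by the test of that difference, against 41.2% of all tested genes. The blocks were then kept apart and their 2 contrasts averaged, so that the difference between them did not count as spread. In that fit 7003 genes were called, 3184 higher and 3819 lower. As the blocks were proposed after these values had been seen, that count is descriptive. Which direction held most calls depended on the setting. Genes that rose made up 46.8% of the calls in the fit with all 27-week libraries as 1 group, and 57.8% with upper-quartile factors in place of TMM. They were also the majority without the low-count filter (51.4%), at a minimum count of 50 (50.6%) and without library 8 of the 27-week fish (52.5%). They made up 31.6% with limma on the deposited RPKM values, a setting that differs in unit, pseudocount, library totals and test at once.

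Each block was next set against the same 9-week libraries, 5 against 5, in a fit that kept the blocks apart. Because the blocks were proposed after the values had been seen, the p-values of this fit are descriptive. That holds also for the calls shared by the blocks. In block 1, 4071 genes rose and 4459 fell with age, 24.4% and 26.8% of the tested genes (edgeR adjusted p under 0.05). In block 2, 1785 genes rose and 2279 fell, 10.7% and 13.7%. Block 1 thus gave more calls than block 2 from the same number of libraries. On the TMM-adjusted scale the size of called changes followed the same order. The median log2 fold change of genes that rose was 0.92 in block 1 and 0.84 in block 2. That of genes that fell was -0.91 in block 1 and -0.64 in block 2. These medians were not computed on own totals, so their order is given for this scale alone.

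The age differences that held in both blocks comprised 1052 genes that rose, 6.32% of the tested genes, and 1717 that fell, 10.3%. These 2769 genes passed the test in the same direction in each block, with the 9-week libraries in common between the tests. All but 1 of them were also called with the 27-week libraries as 1 group. The falls in both blocks outnumbered the rises with TMM factors, where rises made up 37.99%, and with RPKM on own totals (27.5%) and the deposited RPKM (19.4%), but not with upper-quartile factors (50.7%).

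**Figure D1:**
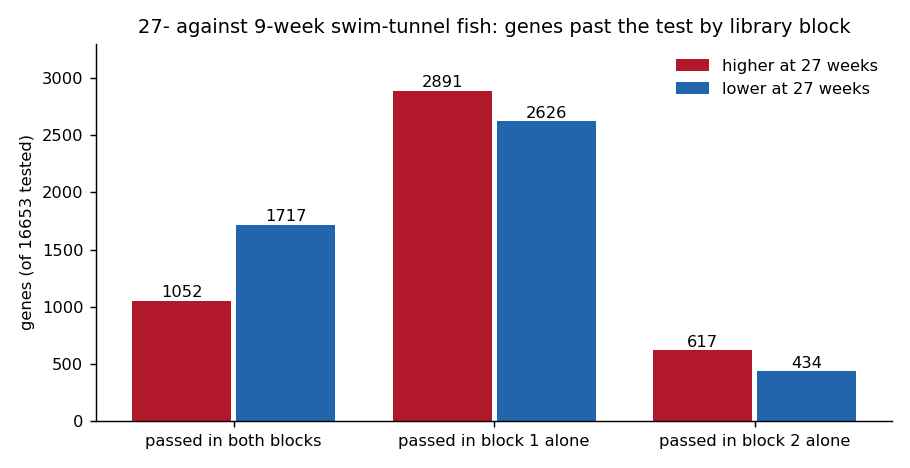
Number of genes past the edgeR test between 27- and 9-week swim-tunnel fish (vertical axis, of 16653 tested) in both blocks of 27-week libraries, in block 1 alone or in block 2 alone. Red bars are genes higher at 27 weeks and blue bars genes lower at 27 weeks; the largest bars are those of block 1 alone, at 2891 and 2626 genes, against 617 and 434 in block 2 alone.

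Changes shared by the blocks were of moderate size. Of the 1052 genes that rose in both, 367 were at least 2-fold higher in each block, 48 at least 4-fold and 11 at least 8-fold. Of the 1717 genes that fell in both, 280 were at least 2-fold lower in each block, 23 at least 4-fold and 5 at least 8-fold. The median log2 fold change of the shared rises was 1.12 in block 1 and 0.91 in block 2, and that of the shared falls was -1.11 in block 1 and -0.66 in block 2, against medians over all tested genes of 0.014 in block 1 and -0.014 in block 2. Every library of 27 weeks lay above every swim-tunnel library of 9 weeks for 409 of the shared rises and below for 1003 of the shared falls. Over all tested genes this held for 430 (2.58%) and 1037 (6.23%), and the same libraries chose the shared genes.

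The level of the shared genes was followed library by library as the median deviation of log2 CPM from the mean of the 9-week swim-tunnel libraries. Because the same libraries chose the genes, these medians are a description and carry no test. Over the 1052 shared rises the deviation was 0.85, 0.98, 1.23, 1.14 and 1.29 in block 1 and 0.66, 0.86, 0.92, 0.94 and 0.99 in block 2, against -0.13 to 0.15 in the 9-week swim-tunnel libraries. On this TMM-adjusted scale library 6 was the lowest of the 27-week libraries, and the blocks overlapped. In share of raw counts library 7 was the lowest, at 6.62%. The deviation without TMM factors was not computed, so the overlap is given for this scale alone.

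Over the 1717 shared falls the deviation was -1.02, -1.19, -1.06, -1.08 and -1.07 in block 1 and -0.50, -0.73, -0.61, -0.60 and -0.79 in block 2, against -0.15 to 0.15 in the 9-week swim-tunnel libraries. On the TMM-adjusted scale the blocks did not overlap here. The fall was on that scale deeper in each library of block 1 than in any of block 2. In share of raw counts the blocks overlapped, at 4.86% to 5.24% in block 1 and 5.07% to 7.15% in block 2. That share weighs genes by their counts, and the deviation was not computed on own totals. The unexercised 9-week libraries, which entered neither contrast, ran from -0.06 to 0.11 for the shared rises and from -0.14 to 0.09 for the shared falls, within the range of the exercised 9-week libraries in both cases.

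**Figure D2:**
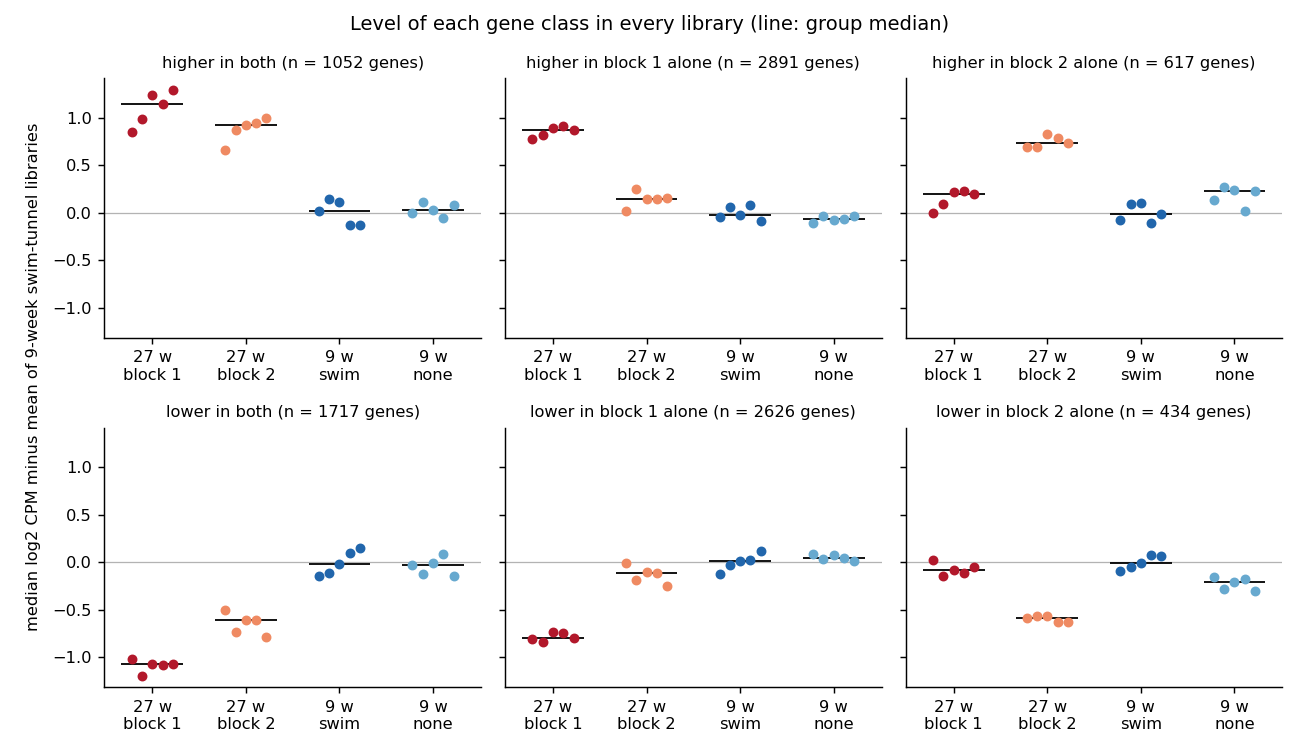
Median deviation of log2 CPM from the mean of the 9-week swim-tunnel libraries (vertical axis) in each library (points) over the genes of 6 classes, with a line at the median of each group. Genes that passed in both blocks stood apart from 0 in all 10 libraries of 27 weeks, and genes that passed in block 1 alone stood at 0.77 or more, or at -0.73 or less, in block 1.

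The 4 genes below were the first in each direction by the smaller of their log2 fold changes in the blocks, among 265 rises and 868 falls shared by both blocks without overlap of single libraries and with a mean of at least 5 CPM at the age where they were higher. Their functions could not be looked up. Changes this large were rare, since the median of that smaller fold change was 0.90 over the 265 rises and 0.68, as a size, over the 868 falls.

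Nfu_g_1_001848 (4090 bases) stood at 119.3, 65.9, 91.7, 195 and 170.3 CPM in block 1 and at 195, 334, 224, 295 and 376 CPM in block 2, against 8.12, 12.9, 12.7, 4.50 and 18.7 CPM in the 9-week swim-tunnel libraries. These levels rest on 2402 to 9712 counts at 27 weeks and at most 449 at 9 weeks. The exercised libraries of the 2 ages did not overlap, as the naming rule required. In CPM block 2 lay above block 1 by a narrow margin, from 194.7 in library 4 to 195.3 in library 6. In RPKM on own totals the blocks overlapped, with 52.9 in library 4 of block 1 and 42.6 in library 8 of block 2. The log2 fold change with age was 3.50 in block 1 (SE 0.44, edgeR adjusted p = 1.67e-06) and 4.65 in block 2 (SE 0.46, adjusted p = 7.49e-06). The blocks differed by -1.15 (block 1 minus block 2, SE 0.40, edgeR adjusted p = 0.0257). That difference no longer passed without library 2 (adjusted p = 0.0658), 3 (adjusted p = 0.0613) or 10 (adjusted p = 0.0593) of the 27-week fish, or with RPKM on own totals (limma adjusted p = 0.0615). Unexercised 9-week fish had 25.3 to 29.9 CPM in 4 libraries and 92.9 CPM in library 5, which lay above the 2 lowest libraries of 27 weeks.

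Nfu_g_1_007335 (4195 bases) was a rarer transcript that rose in both blocks. It had 14.3, 20.2, 15.5, 14.4 and 19.5 CPM in block 1 and 6.24, 16.5, 8.88, 28.1 and 25.9 CPM in block 2, against 2.39, 2.66, 0.948, 0.888 and 0.457 CPM in the 9-week swim-tunnel libraries. Block 2 was the more scattered of the blocks and held both the lowest and the highest library of 27 weeks. The log2 fold change was 3.49 in block 1 (SE 0.60, edgeR adjusted p = 6.98e-05) and 3.52 in block 2 (SE 0.60, adjusted p = 0.000393), and the blocks were not shown to differ (difference -0.03, SE 0.52, edgeR adjusted p = 0.972). Library 5 of the unexercised 9-week fish was again the highest of its group, at 13.8 CPM, with the other 4 between 1.72 and 3.55 CPM. It lay above libraries 6 and 8 of the 27-week fish, at 6.24 and 8.88 CPM.

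Nfu_g_1_021005 (1662 bases) led the falls and was an abundant transcript at 9 weeks. It had 9.25, 4.64, 13.5, 8.55 and 22.8 CPM in block 1 and 118.5, 22.8, 18.2, 36.9 and 17.1 CPM in block 2, against 234, 158, 220.0, 529 and 474 CPM in the 9-week swim-tunnel libraries. Library 6, the first of block 2, stood far above the other 27-week libraries but below every 9-week library. The log2 fold change was -4.78 in block 1 (SE 0.59, edgeR adjusted p = 1.63e-06) and -2.92 in block 2 (SE 0.54, adjusted p = 0.000775). The blocks differed by -1.87 (SE 0.52, edgeR adjusted p = 0.00739), and without library 6 by -1.02, which no longer passed (adjusted p = 0.0558), as it did not with RPKM on own totals (limma adjusted p = 0.0781). Without library 6 the fall in block 2 was -3.76. Per length and on own library totals, the mean level was 16.0 ± 19.6 RPKM (SD, n = 10) at 27 weeks and 196 ± 111 RPKM (SD, n = 5) at 9 weeks. Unexercised 9-week fish had between 279.6 and 478 CPM of it, with all 5 libraries above those of 27 weeks.

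Nfu_g_1_020861, the longest of the 4 at 7289 bases, had 3.17, 2.47, 2.95, 3.22 and 3.91 CPM in block 1 and 15.2, 3.17, 6.22, 7.58 and 6.08 CPM in block 2, against 46.2, 28.3, 45.2, 73.3 and 59.3 CPM in the 9-week swim-tunnel libraries. Block 1 was narrow, and library 6 was again the highest of the 27-week libraries. The log2 fold change was -4.00 in block 1 (SE 0.34, edgeR adjusted p = 1.19e-08) and -2.71 in block 2 (SE 0.32, adjusted p = 2.18e-05). The difference between blocks of -1.29 passed (SE 0.32, adjusted p = 0.00259) and was -0.88 without library 6 (adjusted p = 0.0122), while on the log2(RPKM + 1) scale with own totals it was -0.32 and did not (limma adjusted p = 0.270). Unexercised 9-week fish had 26.8 to 45.2 CPM. For all 4 genes the call with age held in each block under every alternative run. The rule had chosen them by large calls in both blocks of these same libraries, so this follows in part from the choice.

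**Figure D3:**
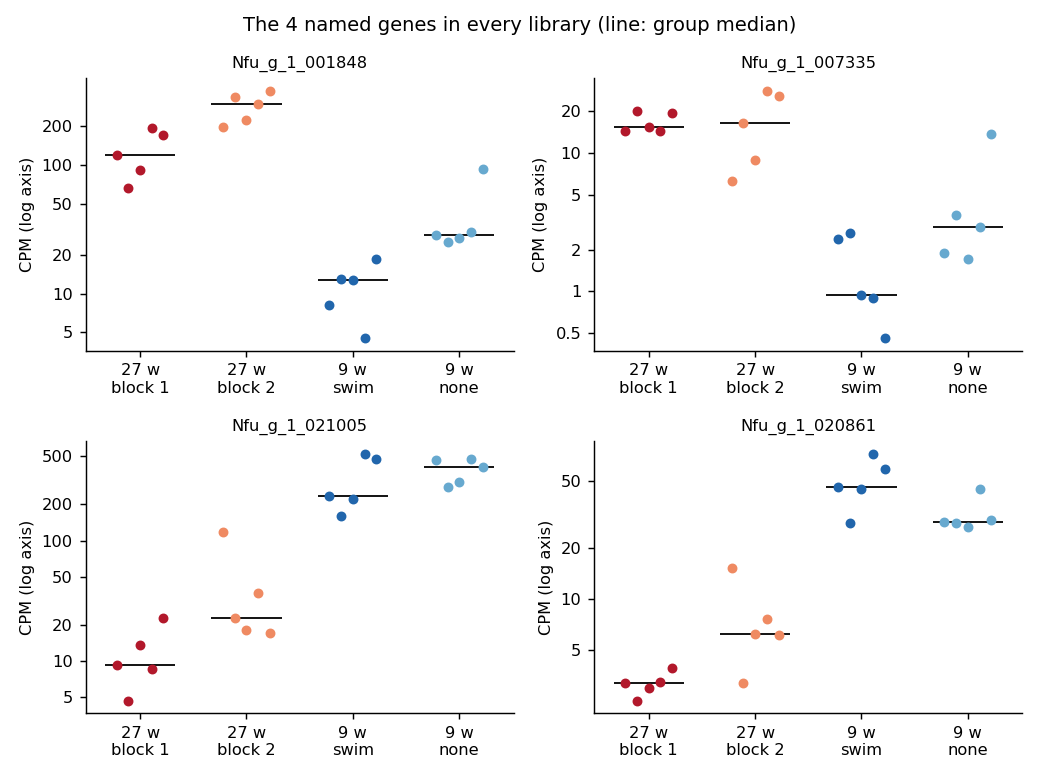
CPM (log axis) of the 4 named genes in every library (points), with a line at the group median. The upper genes were higher and the lower genes lower in all 10 libraries of 27 weeks than in the 5 swim-tunnel libraries of 9 weeks; library 6 was the highest point of block 2 for both lower genes.

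The shared changes reached a sizeable part of the messenger RNA. As the same libraries chose the genes, the shares below are a description and carry no test. The 1052 shared rises held 9.07%, 9.00%, 10.9%, 8.20% and 11.03% of the counts in block 1 and 7.10%, 6.62%, 9.32%, 9.15% and 8.26% in block 2, against 4.18%, 4.17%, 4.46%, 2.38% and 3.11% in the 9-week swim-tunnel libraries. Much of it lay in few genes: the 5 most abundant of them held 4.67% ± 0.840 (SD, n = 10) at 27 weeks and 1.81% ± 0.663 (SD, n = 5) at 9 weeks. The 1717 shared falls held 5.40% ± 0.667 (SD, n = 10) at 27 weeks and 10.3% ± 1.56 (SD, n = 5) at 9 weeks. Their counts were spread more widely, with 0.921% ± 0.197 (SD, n = 10) at 27 weeks and 1.81% ± 0.267 (SD, n = 5) at 9 weeks in the 5 most abundant.

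**Figure D4:**
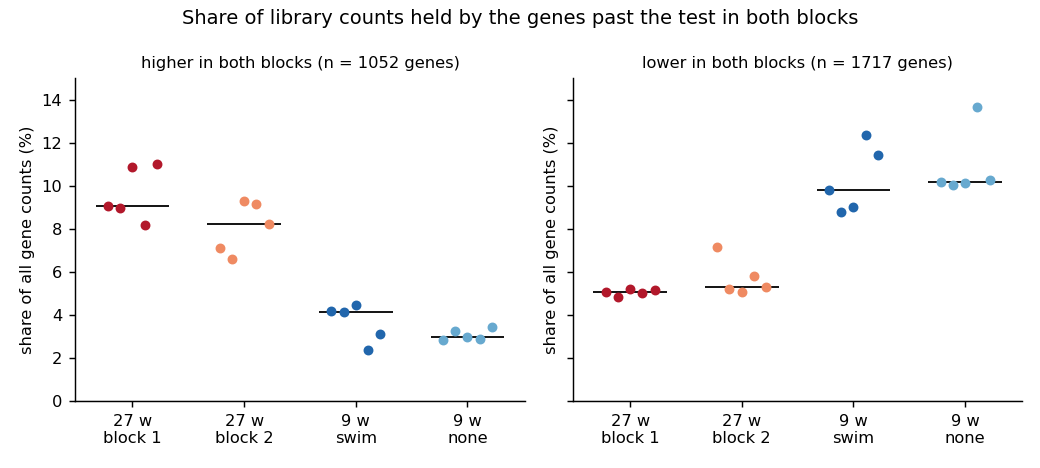
Share of all gene counts of a library (vertical axis, percent) held by the genes that rose in both blocks (left) and by those that fell in both (right), with 1 point per library and a line at the group median. All 10 libraries of 27 weeks held 6.62% or more in the rising genes, and at most 7.15% in the falling genes.

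Among the 50 genes most abundant over these 15 libraries, 4 rose and 4 fell in both blocks, where 6.32% and 10.3% of all tested genes did. Most of the other calls among these transcripts came from a single block: 15 fell in block 1 alone, 12 rose in block 2 alone and 1 rose in block 1 alone. The shares of all tested genes in these classes were 15.8%, 3.71% and 17.4%. A further 5 fell in block 1 and rose in block 2, and 9 were called in neither, against 0.697% and 42.5% of all tested genes. None of the 50 fell in block 2 without also falling in block 1. Of all tested genes, 2.61% fell in block 2 alone and 0.769% fell in block 2 while rising in block 1. All these calls are on the TMM-adjusted scale. In raw counts, the 50 most abundant genes of each library held 59.4% ± 1.70 in block 1 and 60.5% ± 3.03 in block 2. At 9 weeks they held 58.5% ± 3.17 (SD, n = 5 each), with the 50 genes taken anew in each library. How far the TMM factors set the split of these calls between the blocks was not tested.

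A call in a single block did not by itself show that the blocks differed, so the difference between them was tested directly. It passed for 6861 genes, 41.2% of those tested (edgeR adjusted p under 0.05, block 1 against block 2). The blocks were proposed after these values had been seen, so the p-values between blocks are descriptive and not those of a planned test. Of the 2891 genes that rose in block 1 alone, 2002 also differed between the blocks and 889 were not shown to differ. Of the 2626 that fell in block 1 alone, 1949 differed and 677 were not shown to. For calls in block 2 alone, the difference passed for 369 of 617 rises and for 282 of 434 falls. Passing in 1 block and not in the other chose these genes on the same values, so their shares are a description.

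Among the shared changes, the blocks differed in size for 286 of the 1052 rises (27.2%) and for 884 of the 1717 falls (51.5%), with the 41.2% of all tested genes as background. Of those 884 falls, 850 were deeper in block 1 and 34 in block 2. Of those 286 rises, 34 were larger in block 2 and the others in block 1. On the TMM-adjusted scale, differences between the blocks in the shared genes were thus mostly of 1 kind, a larger change in block 1. The shared falls held a median of 5.10% of raw counts in block 1 and 5.31% in block 2. A TMM factor acts alike on all genes of a library, and the gap between the blocks depended on the scale. For Nfu_g_1_020861 the mean was 3.14 CPM in block 1 and 7.65 CPM in block 2, but 0.504 and 0.944 RPKM on own totals. How far the TMM factors set the split of the falls was not tested.

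Shared falls were more frequent in each higher class of abundance, and shared rises were least frequent in the lowest class. In 5 classes of equal size by mean CPM over these 15 libraries, from lowest to highest, 1.83%, 5.32%, 9.43%, 15.6% and 19.4% of genes fell in both blocks. The share that rose in both was 2.91%, 6.79%, 6.96%, 7.57% and 7.36%. More counts make a given change easier to detect, and how far this set these shares was not tested. In the highest class the median log2 fold change over all genes was -0.28 in block 1 and -0.06 in block 2, and in the lowest class it was 0.19 in block 1 and 0.07 in block 2. The medians of the lowest and highest classes lay further apart in block 1 than in block 2.

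Shares of shared calls varied less between classes of gene length. In 5 classes of equal size by length, from shortest to longest, 10.7%, 11.4%, 9.79%, 10.3% and 9.34% of genes fell in both blocks, and 5.98%, 6.67%, 7.15%, 6.10% and 5.71% rose in both. The median length was 2799.5 bases for the shared rises and 2631 bases for the shared falls, with 2837 bases over all tested genes.

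**Figure D5:**
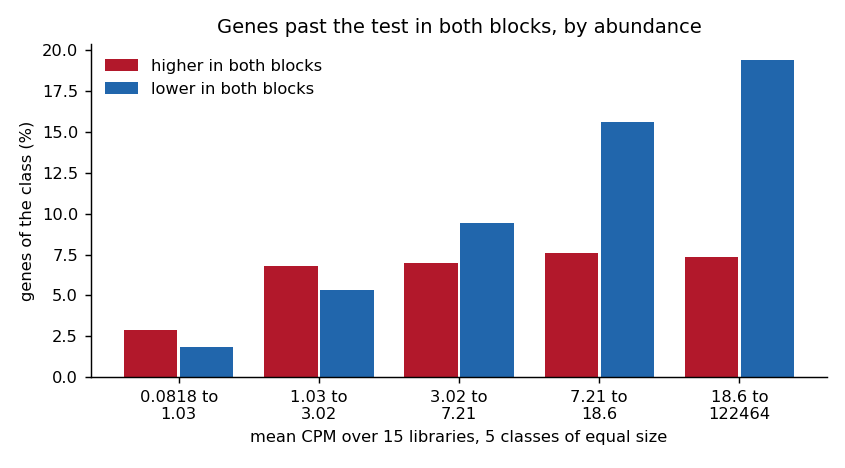
Share of genes (vertical axis, percent of the class) that passed the test in both blocks, in 5 classes of equal size by mean CPM over the 15 libraries (horizontal axis, CPM range of each class). Red bars are genes higher and blue bars genes lower at 27 weeks; the blue bars go from 1.83% in the lowest to 19.4% in the highest class.

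When each of the 15 libraries was left out in turn, between 2129 and 2997 genes passed in both blocks. Of the 2769 shared calls, 1743 (62.9%) were kept in the same direction in all 15 of these fits, 603 of them rises and 1140 falls. Single omissions kept between 2067 genes, without library 5 of the 9-week fish, and 2648 genes, without library 1 of the 27-week fish. Across these fits and the 8 other settings run on counts or on RPKM with own totals, 1397 genes were kept throughout, 39.8% of the shared rises and 57.0% of the shared falls.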

How the data were processed

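Libraries were made from muscle total RNA with a TruSeq kit, per the labels' protocols. Per the submitters' processing notes, the tools included featureCounts 1.4.6-p4, STAR 2.4.1d and bcl2fastq 1.8.4. The genome build, annotation and strand setting were not given in the sources used here. Near-identical, overlapping and antisense genes could not be told apart. The authors deposited raw counts per gene and RPKM values for 26739 genes in 20 libraries. Counts of 15 libraries were compared here, with totals of 24333849 to 38007162. No 2 libraries of a group agreed within sampling noise (lowest chi-square 33.6 per degree of freedom). The RPKM values fit library totals assigned down the rows instead of by column, as seen from the counts: the implied gene length varied between libraries by 8.55e-05 log2 units with totals so assigned and by 0.248 with own totals. They served for gene lengths and alternatives only. Of the identifiers, 0 matched the 38438-gene reference table, so no list of fibre types, pathways or cell type markers could be looked up.

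The counts were fitted with edgeR 4.0.16 under R 4.3.3, after filterByExpr with a minimum count of 10 (16653 genes kept), with TMM factors and a robust quasi-likelihood fit over all 20 libraries. A fit with 3 groups gave the age contrast, and a fit with the 27-week libraries in 2 blocks gave each block against 9 weeks and the blocks against each other. Tests were two-sided, and p-values were adjusted by Benjamini and Hochberg's method across the 16653 genes, with 0.05 as the threshold. SEs are the absolute log2 fold change over the square root of F. Log2 CPM used a prior count of 2, and RPKM a pseudocount of 1 in limma 3.58.1. DESeq2 1.42.0 was an alternative. The fits were also run on simulated data with age changes alike in both blocks. As no block difference was simulated, that run cannot show how the fits behave where the blocks differ. Named genes were ranked by the smaller of their block fold changes among shared calls with no overlap of single libraries and at least 5 CPM, and the first 2 in each direction are given. The blocks, the rule and the lists were chosen with earlier results of these data known.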

Additional observations from a re-analysis of the deposited data

Results flagged for a closer look

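The extremes of 22 groups of values were examined, and 3 held a library whose gap to its neighbour exceeded Dixon's critical share of the range. About 1 group in 20 of normally distributed values does so by chance, which for 22 groups comes to 1.1. CPM values were taken here without logs, where a high library stands out more than on the log2 scale. Library 6 of the 27-week fish had 118.5 CPM of Nfu_g_1_021005, with the other 9 between 4.64 and 36.9 CPM. The same library had 15.2 CPM of Nfu_g_1_020861, with the others between 2.47 and 7.58 CPM. Library 1 of the 9-week swim-tunnel fish had a score of 88.7 on principal component 2, whereas the other 4 had scores from -28.6 to 1.98.

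The age difference of 3 of the named genes differed between the blocks by the edgeR test of that difference. On the log2 scale, block 1 minus block 2, it was -1.15 for Nfu_g_1_001848, -1.87 for Nfu_g_1_021005 and -1.29 for Nfu_g_1_020861. In the first the rise was larger in block 2, and in the other two the fall was deeper in block 1.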

How the results depend on the processing

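Of 228 alternative values of the counts of called genes and of the summaries, 217 kept to within 1.5 times the main count or to their side of the test. At an adjusted p under 0.01, 2924 genes were called with age (1157 higher, 1767 lower), 2248 in block 2 and 1534 in both blocks (511 higher, 1023 lower); a stricter threshold lowers such counts by construction. Shared rises numbered 684 with RPKM on own totals and 366 with the deposited RPKM, which called 3468 genes with age, 1097 of them higher; the cause was not tested. With each library left out in turn, calls ran from 3970 to 5926 with age (1758 to 2909 higher, 2212 to 3123 lower), from 7885 to 8963 in block 1, from 3200 to 4232 in block 2, from 2129 to 2997 in both blocks (794 to 1182 higher, 1323 to 1815 lower) and from 6074 to 7050 between the blocks. All 300 alternative values of the named genes' age differences kept direction and call, for genes chosen by large calls in these same libraries. Of 75 block differences, 64 did and 11 no longer passed, 6 of them with RPKM. No fit on counts moved the median of all genes by over 0.1 log2 units from the main value, but each of them rescaled the library totals. On the log2(RPKM + 1) scale with own totals the median moved by 0.091 in block 1 and by -0.062 in block 2. The pseudocount makes that scale unlike CPM, and own totals without scaling factors were not run on the CPM scale. No paired analysis was possible because the labels give no replicate numbers. The fewest genes passed in the lowest abundance class, and the part of depth in this was not tested.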

Other observations

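Some age differences ran in opposite directions in the 2 blocks and were almost absent from the calls made with all 27-week libraries as 1 group. Of the tested genes, 244 passed in both blocks with opposite signs. Of them, 116 were lower in block 1 and higher in block 2 (0.697% of those tested) and the others the reverse (0.769%). With all 27-week libraries as 1 group, 1 of the 244 was called, a gene higher in block 1. Opposite changes cancel in that group's mean, so few calls follow from how these genes were chosen. The 116 genes were abundant, with a median of 34.4 CPM against 4.73 CPM over all tested genes. As the blocks and the exercised 9-week libraries chose the genes, the shares below are a description and carry no test. The 116 genes held 5.21% ± 0.378 of the counts in block 1 and 6.75% ± 0.376 in block 2 (SD, n = 5 each). They held 5.57% ± 0.513 in the 9-week swim-tunnel libraries and 6.48% ± 0.280 in unexercised 9-week fish (SD, n = 5 each). The genes higher in block 1 and lower in block 2 held 0.355% ± 0.0110 in block 1 and 0.122% ± 0.00940 in block 2, against 0.194% ± 0.0190 and 0.158% ± 0.0152 in the exercised and unexercised fish of 9 weeks (SD, n = 5 each).

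Genes that changed in block 2 alone also stood off the exercised 9-week level in most unexercised libraries. Over the 434 genes that fell in block 2 alone, the median log2 CPM deviation from the exercised 9-week mean was between -0.63 and -0.56 in block 2, between -0.14 and 0.02 in block 1 and between -0.31 and -0.15 in the 5 unexercised libraries, all below the exercised 9-week libraries at -0.09 to 0.08. Over the 617 genes that rose in block 2 alone it was between 0.69 and 0.82 in block 2, between 0.00 and 0.23 in block 1 and between 0.01 and 0.27 in the unexercised libraries. Of these, 4 lay above the exercised 9-week range of -0.11 to 0.11, and library 4 lay within it. This was not particular to genes called in block 2 alone. Over genes higher in block 1 and lower in block 2, the unexercised libraries ran from -0.36 to -0.28 and the exercised 9-week libraries from -0.06 to 0.04. Over genes lower in block 1 and higher in block 2, they ran from 0.03 to 0.39 and from -0.19 to 0.09. The genes were chosen partly on the exercised 9-week libraries, which every deviation here uses, and no test was made.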
